A study of Mus musculus with 4 samples.

Results

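CpGs with both cytosines listed were a small subset of the second of 2 whole-genome MAB-Seq libraries of wt E14 cells, a line of mouse embryonic stem cells. A CpG has 1 cytosine on each strand, so a plus-strand row and a minus-strand row at the next base belong to the same CpG. Joining the rows in this way gave 899 CpGs listed on both strands (exact 95% Poisson interval 841.2 to 959.7) of 117603 listed CpGs, or 0.764%. The remaining 116704 CpGs were listed on 1 strand only, with 58366 plus-only and 58338 minus-only CpGs. Members were chosen by the deposited p-value list of the second library, so its p-values, recovered reads and spacing are given as a description. The other 3 libraries played no part in the choice.

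TET enzymes oxidise 5-methylcytosine to 5-hydroxymethylcytosine and on to 5-formylcytosine (5fC) and 5-carboxylcytosine (5caC). Thymine DNA glycosylase, encoded by Tdg, excises 5fC and 5caC, after which repair restores an unmodified cytosine. In methylation-assisted bisulfite sequencing (MAB-Seq) the CpG methyltransferase M.SssI first methylates unmodified CpGs. A CpG cytosine that is then converted by bisulfite carried 5fC or 5caC, or escaped the enzyme, and these cannot be told apart here. M.SssI acts on the cytosines of both strands, and each strand of a CpG gives its own reads.

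The study's 4 libraries analysed here all came from E14 cells, which are 1 cell line. They were a reduced-representation library of cells with an shRNA against Tdg, a reduced-representation library of cells with a control shRNA, and 2 whole-genome libraries of wt cells. Whether the 2 wt libraries were grown separately is not stated in the labels, and each shRNA group has 1 library. The first whole-genome list held 331875 plus-strand positions with a level, the share of converted reads after the authors' background correction, while the second held 118502 positions of either strand with a p-value and no level. The Tdg shRNA list held 8948 positions and the control shRNA list 12895, each marked as plus strand throughout. Tdg expression and the identity of the cells were not measured in these files. Depth is unknown except in the second whole-genome library, where reads were recovered from the p-values. Intervals below are exact Clopper-Pearson 95% intervals that cover counting error only, and neighbouring CpGs are not independent.

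The first library gives 5 bases around the cytosine for 604 of the 899 CpGs. The 5 most frequent contexts are shown because they differ between the 2 stretches described next and the rest of the genome. Capitals mark the CpG, and the plus strand is written 5′ to 3′.
context 1: caCGt
context 2: ctCGc
context 3: tcCGt
context 4: aaCGt
context 5: ggCGg

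Both-strand CpGs were concentrated on chrUn_random, the unplaced contigs of the mm9 build, and at the assembled start of chromosome 9, from 3 Mb to 3.04 Mb. These 2 stretches, called the marked stretches here, held 336 of the 899 CpGs, or 37.4% (34.2% to 40.6%), against 1.59% of one-strand CpGs and 1.87% of all listed CpGs. At the start of chromosome 9, 170 of 421 listed CpGs had both strands listed, or 40.4% (35.7% to 45.2%). On chrUn_random the share was 166 of 1776, or 9.35% (8.03% to 10.8%). The boundary at 3.04 Mb was sharp in this list, since the next 10 kb held 1 listed CpG and no both-strand CpG. The rest of chromosome 9 had 31 of 6041, or 0.513%.

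Elsewhere 563 of 115406 listed CpGs were listed on both strands, or 0.488%. Autosomes had a share of 0.485% (552 of 113709) and chromosome X of 0.548% (8 of 1459, 0.237% to 1.08%). Neither the 9 listed CpGs of chromosome Y nor the 10 of the mitochondrial genome included a member. Chromosome 17 had the highest share of any autosome, 1.19% (66 of 5528, 0.925% to 1.52%). Chromosome 10 had the lowest, 0.193% (11 of 5703, 0.0963% to 0.345%). These 2 intervals do not overlap, and 27 of the 66 CpGs of chromosome 17 lay in a single 10 kb window. Mouse chromosomes are acrocentric and their assembled sequence begins at 3 Mb. In the first 100 kb of the other autosomes and of chromosome 9 past its marked start, 71 of 347 listed CpGs were listed on both strands, or 20.5% (16.3% to 25.1%), against 481 of 113362, or 0.424% (0.387% to 0.464%), further along. These 71 lay on 4 of the 13 chromosomes with listed CpGs there, with 25 on chromosome 11, 23 on chromosome 4, 16 on chromosome 17 and 7 on chromosome 3. Without chromosomes 4, 11 and 17 the share was 7 of 84, or 8.33% (3.42% to 16.4%).

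**Figure D1:**
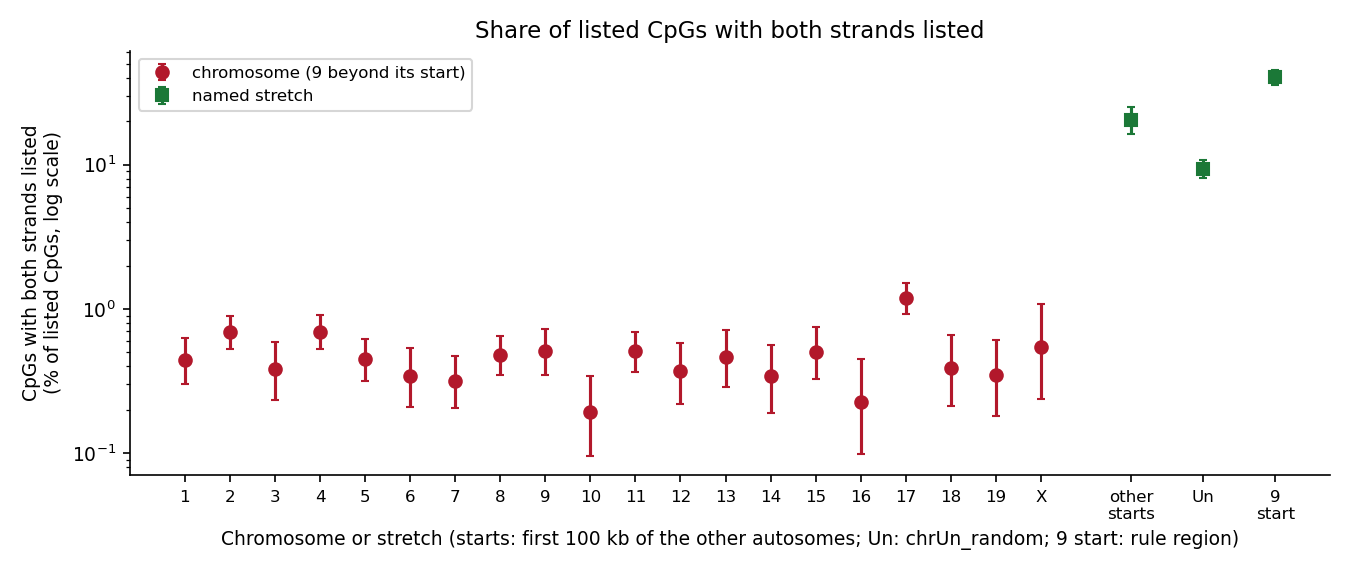
Share of listed CpGs with both strands listed (log scale, error bars are exact 95% intervals) for each chromosome outside the marked stretches (circles) and for 3 stretches (squares). The squares lie at 20.5%, 9.35% and 40.4%, above every chromosome, the highest of which is chromosome 17 at 1.19%.

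Members lay close to other listed CpGs. The nearest other listed CpG of the second library was a median of 19 bp away (18 to 22 bp), against 830 bp for plus-only and 825.5 bp for minus-only CpGs. Away from the marked stretches the medians were 24 bp for both-strand, 937 bp for plus-only and 932 bp for minus-only CpGs. Another listed CpG lay within 100 bp of 79.4% of members (76.6% to 82.0%) and of 35.6% of one-strand CpGs, with 35.9% over all listed CpGs. These shares were 72.3% and 34.9% outside the marked stretches, with 35.1% over all, and 91.4% and 76.8% on them, with 79% over all. Another both-strand CpG lay within 100 bp of 44.5% of members, while 0.915% of plus-only and 0.991% of minus-only CpGs had one that near. Both-strand CpGs thus clustered with each other and with one-strand CpGs, although 309 of the 563 outside the marked stretches were the only one in their 10 kb window.

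In 10 kb windows, 30 windows with 5 or more members held 414 of the 899, or 46.1%. The fullest 4 windows made up the marked start of chromosome 9, with 48, 30, 44 and 48 members in order of position. A window on chromosome 2 at 98500001 to 98510000 followed, where 28 of 49 listed CpGs were listed on both strands. Of these 28, 26 were listed in the first library at a median level of 3.20%, 26 in the Tdg shRNA library and 12 in the control shRNA library. On chromosome 17 the window at 39980001 to 39990000 had 27 of 103 CpGs listed on both strands, with 13 in the first library, 7 with Tdg shRNA and 3 with control shRNA. On chrUn_random the window at 5490001 to 5500000 had 22 of 68, with 18 in the first library, 15 with Tdg shRNA and none with control shRNA. Chromosome 4 at 3010001 to 3020000 had 13 of 41, and the median level of the 12 CpGs listed in the first library was 48.5%. The windows of chromosomes 2 and 4 were therefore both dense in members, while their first-library levels differed widely. Listing in the other libraries was counted for members only in these windows, so these counts are not read as a trait of members. Over rows of either class with recovered reads, the median was 700 reads in the window on chromosome 2 (9 of 77 rows), 312 in that on chromosome 17 (83 of 130), 57 on chrUn_random (29 of 90) and 55 in that on chromosome 4 (19 of 54). Recovery leaves out the strongest rows, so these medians rest on unequal shares of each window and are not ranked.

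Joining members at most 100 bp apart gave 639 runs, of which 140 had at least 2 members and held 400 members. The longest run had 10 members at 3036038 to 3036385 of chromosome 9, with 1 one-strand CpG between them. All 10 were listed with Tdg shRNA, 9 in the first library at a median level of 0.412% and 3 with control shRNA. Over the whole marked start of chromosome 9, Tdg shRNA positions fell on 236 of 421 listed CpGs. A run of 9 members spanned 32 bp of chromosome 13, from 52811076 to 52811107. Of these 9, 3 were listed in the first library, at levels of 22.7% to 25.1%, and none with either shRNA. The minus-strand rows of 8 of the 9 had the same p-value, 4.10e-12. Runs of 8 members lay on chromosome 2 at 98506839 to 98507114, and on chromosome 9 at 35112873 to 35113120 and at 3019254 to 3019470.

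A few distances recurred within the marked start of chromosome 9. The 169 gaps between consecutive members there had a median of 60 bp, and 11 of them were 18 bp, 10 were 12 bp, 9 were 16 bp and 9 were 28 bp. Among pairs of members 100 to 400 bp apart, the commonest distances were 234 bp (8 of 308 pairs) and 233 bp (7 pairs). On chrUn_random the commonest was 235 bp (5 of 62 pairs), and the context was the same at both members in all 5. In the longest run, caCGt recurred at 3036050 and 3036283 and tcCGt at 3036078 and 3036311. These distances were looked for after the run had been seen. No repeat annotation of mm9 was used, so the elements these CpGs lie in are not named.

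Evidence in the second library was stronger at members than at one-strand CpGs, except at plus-strand rows on the marked stretches. The largest p-value of a member row was 0.00994 and that of the whole list 0.00997, so the list's own threshold sets which CpGs count as both-strand. In 188 members, or 20.9%, the weaker row had a p-value above 0.005, and in 148 both rows were listed at exactly 0. P-values at or below 1e-07 were found for 48.2% of plus and 56.3% of minus rows of members, against 14.1% of plus-only and 14.0% of minus-only rows. Outside the marked stretches these shares were 43.7% and 44.6%, against 13.4% and 13.2%. On them plus rows were close, at 55.7% for members and 56.8% for plus-only CpGs. Minus rows there had 75.9% for members and 61.3% for minus-only CpGs. The share of listed CpGs with both strands was 0.777% at plus-strand rows with 10 recovered reads, 0.567% at 11 to 15 reads, 0.719% at 16 to 30, 2.01% at 31 to 100 and 14.3% (11.6% to 17.3%) at more than 100. Away from the marked stretches the share at more than 100 reads was 4.69% (3.03% to 6.89%). Among plus-strand rows with recovered reads the share was thus highest at more than 100 reads, with no steady trend from 10 to 30 reads. At minus-strand rows it was 0.603% at 10 reads, 0.616% at 11 to 15, 0.665% at 16 to 30 and 0.924% at 31 to 100. It was highest there too at more than 100 reads, at 11.8% (9.25% to 14.8%). The part of depth in the results below was not tested, and the p-value bins given there do not hold depth fixed.

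Reads were recovered on both strands for 287 members, 243 of them outside the marked stretches. Both strands had a median of 15 reads over these 287 members and of 13 over the 243 outside. The median of one-strand CpGs with recovered reads was 13 as well. At the marked start of chromosome 9 the medians were 77 plus-strand and 504 minus-strand reads. The median uncorrected level was 29.4% for plus-strand and 27.3% for minus-strand rows. The plus-strand level exceeded the minus-strand level by a median of 1.19 percentage points (interval 0 to 2.73), with quartiles of -5.05 and 9.45. The plus strand was higher at 152 CpGs, the minus strand at 120, and 15 were equal, so neither strand was higher throughout. At the start of chromosome 9 the plus strand was higher at 16 of the 17 members with recovered reads on both strands. By the medians above, the plus strand was the shallower one there. The range of levels that can be recovered falls as reads rise, so no strand effect is read from this.

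Levels on the 2 strands of a CpG were loosely related. Across the 287 CpGs Spearman's rho was 0.39, and 0.29 across the 243 outside the marked stretches. Among the 192 that were the only member in their window it was 0.012. Both levels depend on depth, because a shallow row passes the p-value only at a high level. A deep row at a high level has a p-value at or below 1e-07, and its reads are not recovered. Where both strands had 10 to 15 reads (101 CpGs), rho was -0.08 and the median size of the difference was 6.06 points. Where both had over 100 reads (24 CpGs), the median levels were 8.23% for plus-strand and 7.55% for minus-strand rows, the median size of the difference was 1.86 points and rho was 0.04. Within each depth the list threshold and the recovery limit leave only a narrow range of levels. These rho values therefore cannot show whether the 2 strands are related at a given depth.

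**Figure D2:**
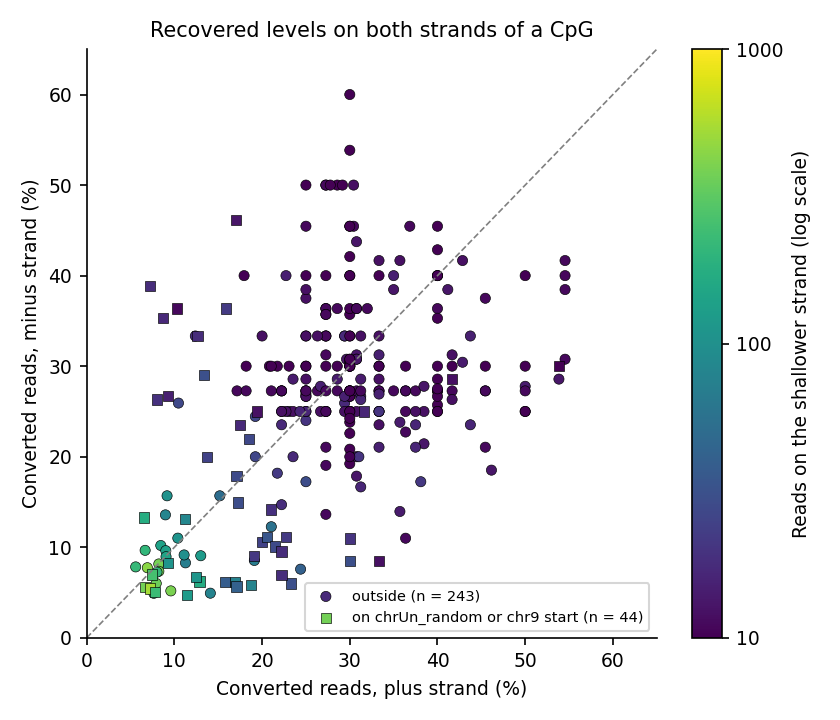
Share of converted reads on the plus strand (x axis) and minus strand (y axis) of the 287 both-strand CpGs with recovered reads on both, outside (circles) and on (squares) the marked stretches, coloured by reads on the shallower strand (log scale). Deeply covered CpGs sit near 8% on both axes and CpGs with 10 to 15 reads near 30%. Reads are recovered only at p-values above 1e-07, so deep rows at high levels are not shown and this pattern is set by that limit and the list threshold.

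The 5 CpGs with the largest difference between strands were mostly on chrUn_random. At position 3912202 there, 24 of 331 plus-strand reads (7.25%) and 7 of 18 minus-strand reads (38.9%) were converted. Position 3916775 had 8 of 47 (17.0%) plus-strand and 6 of 13 (46.2%) minus-strand reads, and position 5331940 had 15 of 173 (8.67%) and 6 of 17 (35.3%) in the same order. On chromosome 11 at 5681671 the counts were 3 of 10 (30%) for plus-strand and 6 of 10 (60%) for minus-strand reads. On chromosome 17 at 3013288 the plus strand was higher, with 6 of 13 (46.2%) against 5 of 27 (18.5%). In the first library these 5 CpGs had levels of 24.1%, 13.0%, 10.9%, 0 and 59.5% in the order given. At the 3 CpGs on chrUn_random the deeper strand was the lower one. Because the range of recoverable levels falls as reads rise, no strand effect is read from this.

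Members were listed in the first whole-genome library more often than one-strand CpGs. That library listed 604 of the 899, or 67.2% (64.0% to 70.3%), against 34.8% (34.4% to 35.2%) of plus-only and 11.6% (11.4% to 11.9%) of minus-only CpGs, with 23.5% over all listed CpGs. Because the first library gives plus-strand positions, plus-only CpGs are the closer comparison. Away from the marked stretches the shares were 67.7% (63.6% to 71.5%) for both-strand, 33.9% for plus-only and 11.5% for minus-only CpGs, with 22.9% over all. For members alone in their window the share was 57.3% (51.6% to 62.9%), against 33.8% of plus-only CpGs in such windows. On the marked stretches the order of both-strand and plus-only CpGs was turned round: 66.4% (61.0% to 71.4%) of members and 87.3% (85.0% to 89.4%) of plus-only CpGs were listed, with 55.8% over all.

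The difference outside the marked stretches was also present within bins of the plus-strand p-value and within bins of the minus-strand p-value. A member also has a listed row on the other strand, so the bins do not match evidence over the whole CpG. Rows at exactly 0 cannot be ranked by strength. Whether the difference holds at equal evidence over the CpG therefore cannot be read from these bins. Among rows with a plus-strand p-value of exactly 0, 89.5% of members (137 of 153) and 68.4% of plus-only CpGs were in the first list. From 1e-12 to 1e-07 the shares were 81.0% for members and 53.7% for plus-only CpGs, and from 0.001 to 0.01 they were 47.0% (38.3% to 55.8%) for members and 25.6% for plus-only CpGs. By minus-strand p-value, 84.1% of members and 22.3% of minus-only CpGs were listed at exactly 0, and 48.0% of members and 8.41% of minus-only CpGs from 0.001 to 0.01. Members were thus listed more often in each bin on either strand, although from just above 0 to 1e-12 the plus-strand intervals overlapped (80.0%, 63.1% to 91.6%, for members and 64.2%, 60.8% to 67.5%, for plus-only CpGs). Of the 295 members missing from the first list, the nearest first-library CpG was a median of 62 bp away, against 228 bp for plus-only and 1010 bp for minus-only CpGs that were missing. Outside the marked stretches the medians were 33 bp for members and 230 bp for plus-only CpGs. On chrUn_random members were the further away, at 427 bp against 118 bp for plus-only CpGs. At the start of chromosome 9 the medians were 70.5 bp for members and 86 bp for 11 plus-only CpGs.

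**Figure D3:**
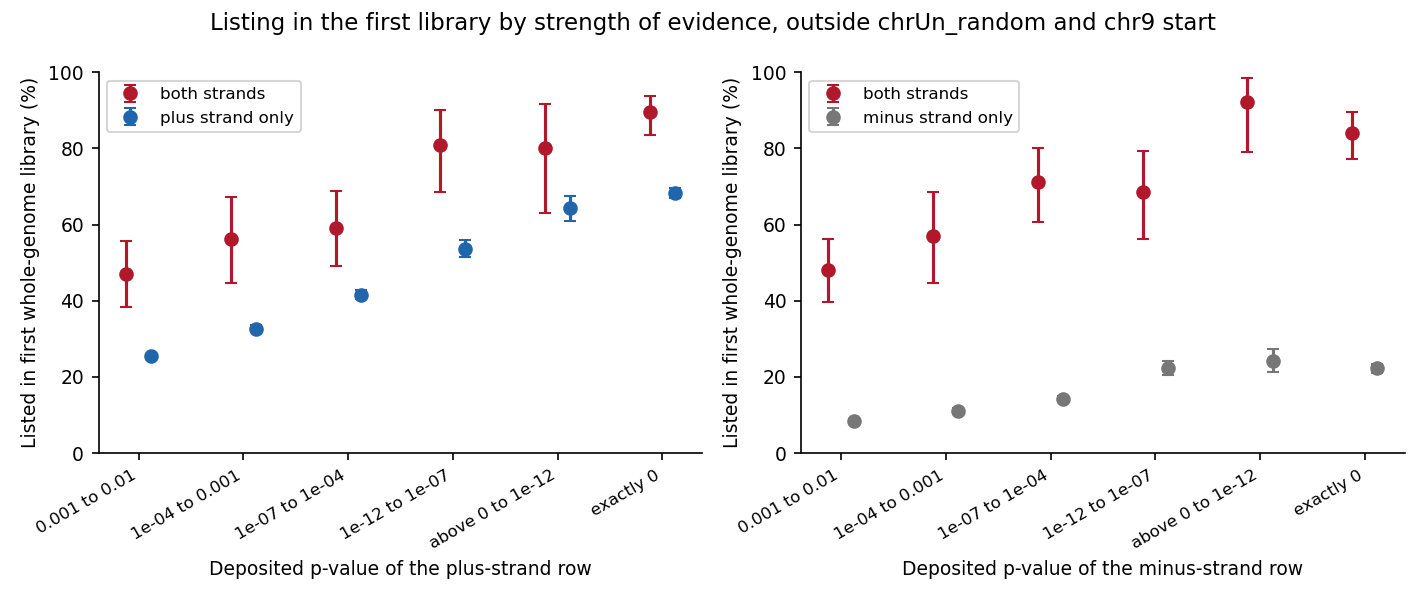
Share listed in the first whole-genome library (y axis, error bars are exact 95% intervals) by deposited p-value of the plus-strand row (left) and minus-strand row (right), outside the marked stretches. In each bin both-strand CpGs lie above CpGs listed on that strand only, from 47.0% against 25.6% at plus-strand p-values of 0.001 to 0.01 to 89.5% against 68.4% at exactly 0.

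Levels in the first library were spread more widely at members than at plus-only CpGs. Outside the marked stretches the 381 members had a median level of 18.2% (13.3% to 23.4%) with quartiles of 3.20% and 44.7%, against 15.9% (15.7% to 16.1%) with quartiles of 10% and 32.9% for 19492 plus-only CpGs. The median intervals were close, while the tails differed. A level of 0 was given to 72 of the 381 members, or 18.9% (15.1% to 23.2%), against 2.22% of plus-only and 69.6% of minus-only CpGs, with 19.2% over all CpGs in both lists. Levels above 20% up to 50% were found for 27.6% of members and 21.9% of plus-only CpGs, and levels above 50% up to 90% for 14.7% of members and 9.72% of plus-only CpGs. Levels above 10% up to 20% held 12.1% of members and 35.5% of plus-only CpGs. Without CpGs at 0 the medians were 27.3% for members and 16.2% for plus-only CpGs. Where the plus-strand p-value was exactly 0, however, members had the lower median, 37.4% against 77.2%.

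On the marked stretches members had low levels. The 223 listed members had a median of 4.85% (1.55% to 9.48%), against 29.1% (26.8% to 31.5%) for 805 plus-only CpGs. At the start of chromosome 9, 62 of 114 members were at 0 (54.4%), and the median was 0 for both-strand, plus-only (10 CpGs) and minus-only CpGs alike. On chrUn_random the medians were 25.6% (15.6% to 34.1%) for 109 members and 29.9% (27.1% to 31.9%) for 795 plus-only CpGs. The low median of the marked stretches was therefore that of chromosome 9.

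**Figure D4:**
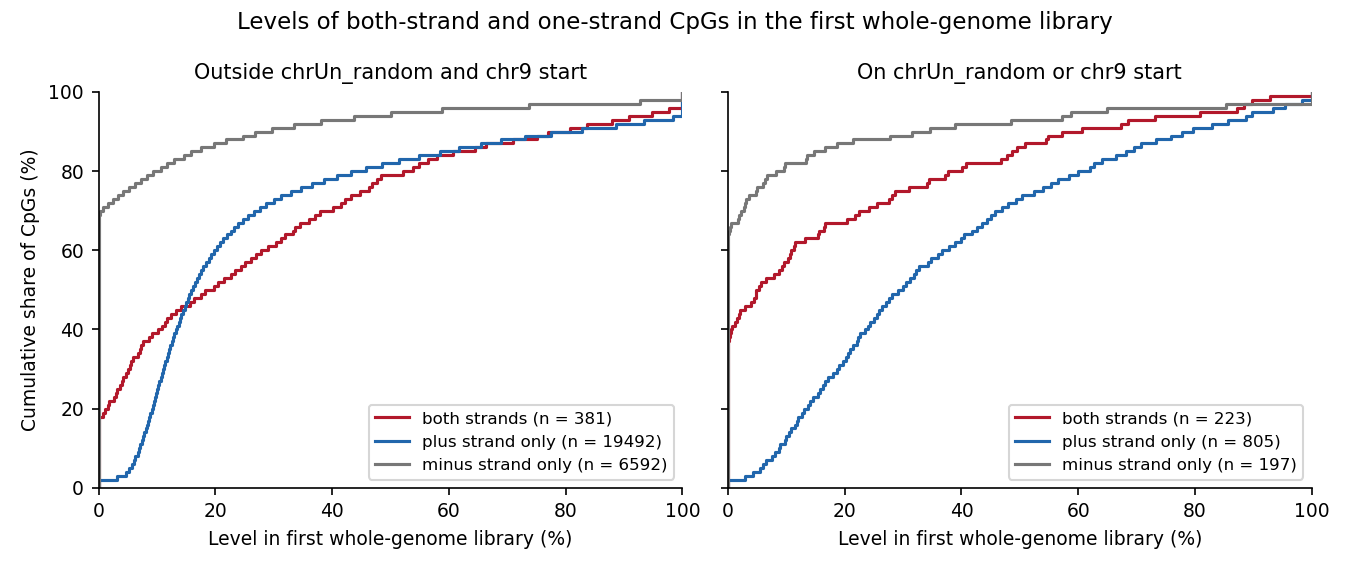
Cumulative share of CpGs (y axis) by level in the first whole-genome library (x axis, percent after the authors' background correction) for both-strand, plus-only and minus-only CpGs, outside (left) and on (right) the marked stretches. Outside, both-strand CpGs start at 18.9% of CpGs at level 0 and cross the plus-only curve before 20%, and on the marked stretches they lie above it over most of the range.

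At the upper end, 23 members outside the marked stretches had a level of at least 90% in the first library, 12 of them at 100%. They made up 6.04% of the 381, against 7.72% of plus-only CpGs above 90%. Examples at 100% are chromosome 1 at 91016686, chromosome 15 at 39652241 and chromosome 8 at 94368613. Each of these had p-values of exactly 0 on both strands, and the nearest other listed CpG was 34479, 22685 and 30885 bp away in the same order. None of these 3 was listed with either shRNA. These 3 are among the 4 most isolated of the 12 at 100%, whose nearest listed CpG was 3 to 34479 bp away, within 100 bp for 5 of them. Of the 12, 11 had p-values of exactly 0 on both strands, 1 was listed with Tdg shRNA and none with control shRNA.

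Members were listed in the shRNA libraries more often than one-strand CpGs. Both are reduced-representation libraries of unknown depth, so a CpG not listed there may not have been read. A position at either cytosine was listed with Tdg shRNA for 279 of 899 members, or 31.03% (28.0% to 34.2%), against 0.668% (0.622% to 0.717%) of one-strand CpGs, with 0.9% over all listed CpGs. With control shRNA it was listed for 66 members, or 7.34% (5.72% to 9.25%), against 0.314% of one-strand CpGs, with 0.367% over all. Elsewhere 15.99% of members (90 of 563, 13.1% to 19.3%) and 0.455% of one-strand CpGs were listed with Tdg shRNA, with 0.53% over all. With control shRNA the shares outside were 5.33% of members (30 of 563, 3.62% to 7.52%) and 0.300% of one-strand CpGs, with 0.325% over all. Most of this lay in dense windows: of the 309 members alone in their window, 12 were listed with Tdg shRNA (3.88%, 2.02% to 6.69%) and 3 with control shRNA (0.971%, 0.201% to 2.81%), against 0.390% and 0.285% of one-strand CpGs in the same order. The control shRNA interval of these isolated members reaches below the one-strand share.

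**Figure D5:**
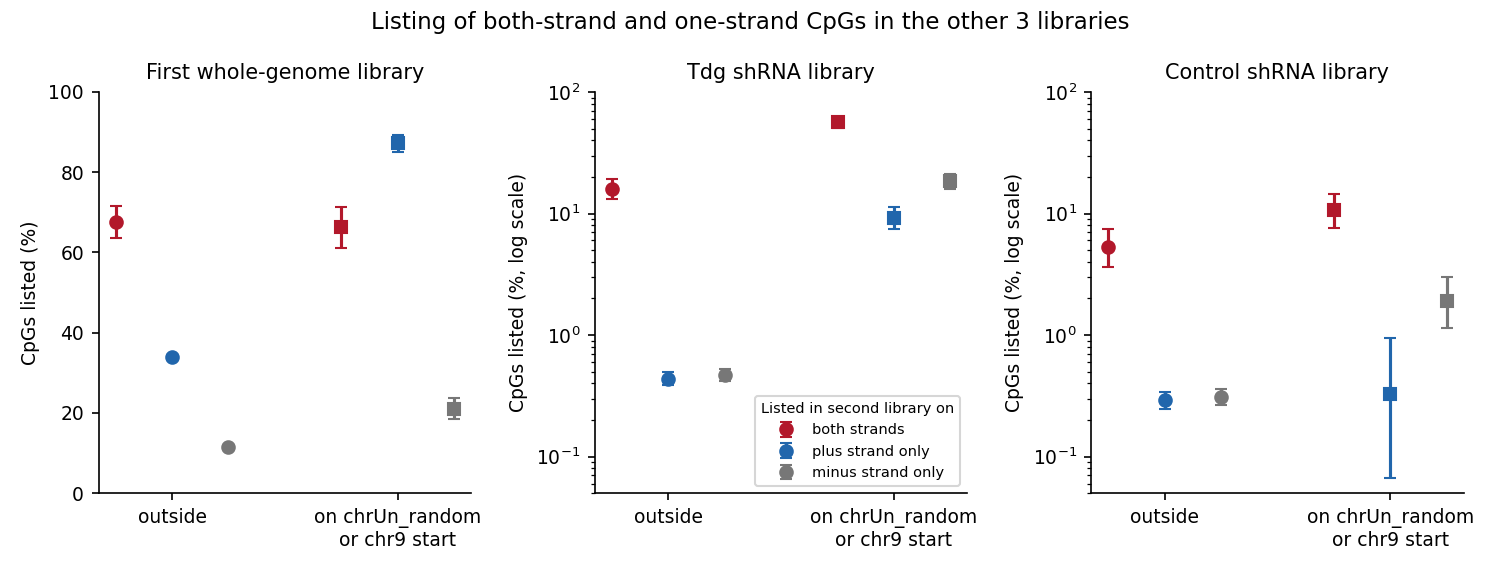
Share of both-strand, plus-only and minus-only CpGs of the second library listed in each of the other 3 libraries (linear scale left, log scale middle and right, error bars are exact 95% intervals), outside and on the marked stretches. Both-strand CpGs are highest in every group except the first library on the marked stretches, where 66.4% of them and 87.3% of plus-only CpGs were listed. That exception was the order on chrUn_random, while at the start of chromosome 9 the shares were 67.1% and 47.6%.

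On the marked stretches Tdg shRNA positions fell on 189 of 336 members, or 56.2% (50.8% to 61.6%), against 13.9% of one-strand CpGs, with 20.3% over all. At the start of chromosome 9 the share was 80.6% of members (137 of 170) and 39.4% of one-strand CpGs, with 56.1% over all. Control shRNA positions fell on 36 members of the marked stretches, or 10.7%, against 1.13% of one-strand CpGs, with 2.59% over all. All but 2 of these 36 lay at the start of chromosome 9.

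Every member listed with control shRNA was listed with Tdg shRNA as well, 66 of 66 (94.6% to 100%), against 122 of 366 one-strand CpGs, or 33.3% (28.5% to 38.4%), and 188 of 432 of all listed CpGs, or 43.5%. Beyond the marked stretches this was 30 of 30 members (88.4% to 100%) and 103 of 345 one-strand CpGs, or 29.9%. On them the classes were close, with 36 of 36 members (90.3% to 100%) and 19 of 21 one-strand CpGs, or 90.5% (69.6% to 98.8%). As a share of the Tdg shRNA side, 66 of 279 members (23.7%) and 122 of 780 one-strand CpGs (15.6%) were also listed with control shRNA. With 1 library per shRNA this compares libraries, and there is no replicate check.

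Both cytosines of the CpG were listed with Tdg shRNA for 124 members and with control shRNA for 5. The Tdg shRNA list held 174 pairs of neighbouring positions in all, of which 124 were members (71.3%, 63.9% to 77.9%), 46 one-strand CpGs and 4 not in the second library. Of the 174 pairs, 53 lay outside the marked stretches, of which 37 were members. The control shRNA list held 14 such pairs, of which 5 were members (35.7%, 12.8% to 64.9%), 1 a one-strand CpG and 8 not in the second library. Outside the marked stretches 3 of its 12 pairs were members. At the 124 members the Tdg shRNA library gave median levels of 11.2% at the plus-strand position and 8.63% at the minus-strand position, and Spearman's rho between them was 0.56 (0.79 across the 37 outside). These levels come from a library that did not choose the members, but the points share that library and cluster in a few windows. Between the first library and Tdg shRNA at the same plus-strand base, rho was 0.45 across 155 members and 0.67 across the 54 outside. The depth of both is unknown, so the same limit holds.

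Where both shRNA libraries listed the same base of a member, the Tdg shRNA level was more often the lower. At 27 plus-strand positions Tdg shRNA gave a median of 9.04% and control shRNA of 14.3%, the median difference was -6.38 points, and Tdg shRNA was lower at 21 and higher at 4. At 44 minus-strand positions the medians were 6.32% for Tdg shRNA and 11.2% for control shRNA, with a median difference of -3.86 points, and Tdg shRNA was lower at 28 and higher at 15. Beyond the marked stretches Tdg shRNA was lower at 12 and higher at 4 of 18 plus-strand positions, and lower at 10 and higher at 5 of 15 minus-strand positions. The positions were not independent and both libraries list only bases that passed their own threshold, so no test was made. The same comparison was not made at one-strand CpGs or over all bases that both libraries list. A lower level with Tdg shRNA is therefore not read as a trait of members.

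Counting the other 3 libraries together, 230 members (25.6%) were in none, 449 (49.9%) in 1, 160 (17.8%) in 2 and 60 (6.67%) in all 3. Of one-strand CpGs 76.3% were in none and 0.0608% in all 3, with 75.9% and 0.111% over all listed CpGs. On the marked stretches 32 of 336 members were in all 3 (9.52%), with 2.18% over all. Outside them 28 of 563 members were in all 3 (4.97%), with 0.0719% over all. Of these 28, 12 lay in the dense window of chromosome 2, 4 in a window of chromosome 9 at 35110001 to 35120000, and 3 each in windows of chromosome 4 at 70030001 to 70040000 and of chromosome 17 at 39980001 to 39990000.

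Of these 28, 13 had p-values of exactly 0 on both strands, and 8 of them show how the libraries compare at single CpGs. Their positions are in mm9, and gene annotation of that build was not used here. At chromosome 17, 39980439 (tcCGa), the level was 90.8% with Tdg shRNA, 89.4% with control shRNA and 40.4% in the first library. At chromosome 2, 98507306 (ggCGa), it was 4.05% on the plus-strand and 4.37% on the minus-strand base with Tdg shRNA, 4.99% and 4.02% on the same bases with control shRNA, and 4.43% in the first library. All 5 values of that CpG thus lay within 1 percentage point of each other.

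Further along the same window, chromosome 2, 98507324 (caCGg), had 2.17% and 5.605% with Tdg shRNA on its plus- and minus-strand bases, 3.11% with control shRNA on the plus-strand base, and 5.26% in the first library. At 98507248 (gaCGa) Tdg shRNA gave 1.499% and 6.34%, control shRNA 11.3% on the minus-strand base and the first library 1.86%. At 98506660 (gcCGg) levels were high in all, with 71.8% and 48.2% with Tdg shRNA, 58.8% with control shRNA on the minus-strand base and 32.1% in the first library. Levels in this window were therefore low at most of these CpGs and high at 98506660.

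The other 3 were neighbours on chromosome 4. At 70039214 (ggCGa) Tdg shRNA gave 10.6% and 20.6% on the plus- and minus-strand bases, control shRNA 42.1% on the plus-strand base and the first library 17.5%. At 70039232 (caCGg) the values were 17.8% and 22.2% with Tdg shRNA, 14.2% with control shRNA and 4.74% in the first library. At 70039252 (ctCGt) they were 19.6% and 20.3% with Tdg shRNA, 43.8% with control shRNA and 11.1% in the first library. On the plus-strand base Tdg shRNA was lower than control shRNA at 70039214 and 70039252 and higher at 70039232.

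Sequence context of members differed between the marked stretches and the rest. The context caCGt accounted for 57 of 604 members with a context, or 9.44% (7.23% to 12.1%), against 2.05% of one-strand CpGs and 2.04% of the whole first list, and 59.6% of these 57 were at level 0. On the marked stretches it made up 49 of 223 members, or 22.0% (16.7% to 28.0%), 1.61% of plus-only and 31.5% (25.1% to 38.5%) of minus-only CpGs, so that it was at least as frequent among minus-only CpGs. Outside them it made up 8 of 381 members, or 2.10% (0.911% to 4.10%), against 1.84% of one-strand CpGs. Likewise 30 of the 38 members with ctCGc and 26 of the 31 with tcCGt lay on the marked stretches, and 17 of the 26 with aaCGt. In contrast 24 of the 25 members with ggCGg lay outside, where they made up 6.30% of members (4.08% to 9.22%), 5.07% of plus-only and 2.20% of minus-only CpGs. The frequent contexts of members were thus mostly those of the marked stretches.

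Outside the marked stretches, members were closer than plus-only CpGs to an even split between a sequence and its reverse complement, with intervals that did not overlap, for 3 of 6 pairs of contexts. Taking the CpG with 1 base on each side, 24 members had gCGt and 31 its reverse complement aCGc, so that gCGt was 43.6% of the pair (30.3% to 57.7%). Among plus-only CpGs gCGt was 80.7% of the pair (79.5% to 82.0%), and among minus-only CpGs 15.6% (13.8% to 17.5%). For gCGg and its reverse complement cCGc the share of gCGg was 52.9% for members (40.6% to 64.9%), 67.3% for plus-only and 35.8% for minus-only CpGs. For gCGa and its reverse complement tCGc the share of gCGa was 47.1% for members (29.8% to 64.9%), 68.7% for plus-only and 32.4% for minus-only CpGs. Members lay between the one-strand classes for each of these 3 pairs. The rule asks for both strands of a CpG alike. A split near even, between those of the one-strand classes, thus follows from the rule, and no trait of members is read from it. For the other 3 pairs the members' intervals overlapped those of plus-only CpGs. Of aCGa and tCGt, aCGa was 53.1% for members, 57.0% for plus-only and 45.6% for minus-only CpGs. Of aCGg and cCGt, aCGg was 58.5% for members, 55.9% for plus-only and 39.7% for minus-only CpGs. Of tCGg and cCGa, tCGg was 44.2% for members, 51.5% for plus-only and 48.5% for minus-only CpGs. The context tgCGt made up 2.62% of members outside (10 of 381, 1.27% to 4.77%), 10.2% of plus-only and 1.24% of minus-only CpGs. Contexts that are their own reverse complement over 4 bases made up 24.7% of members outside (94 of 381, 20.4% to 29.3%), against 28.3% of one-strand CpGs, and 38.1% of members on the marked stretches (31.7% to 44.8%), against 35.9% of one-strand CpGs.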

How the data were processed

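Members and lists were chosen with earlier results of these data known. Genomic DNA of E14 cells was read by MAB-Seq in 4 libraries. The submitters' processing notes name Bismark 0.10.1, CASAVA 1.8 and the build mm9. The authors deposited background-corrected percent levels for the first whole-genome and both shRNA libraries, and the second whole-genome library was deposited with a p-value per position. The calling rule is not given in the sources used here.

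Rows were joined by position with Python 3.11.15, pandas 2.3.3 and scipy 1.17.1. Reads were recovered by matching each p-value above 1e-07 to the upper tail of a binomial distribution, trying totals to 20000 reads, with a background of 3.8%, within a relative tolerance of 1e-08. This gave a unique solution for 101128 of 118502 rows (85.3%), was tested on simulated data, and leaves out the strongest rows. The fewest reads recovered were 10, of which at least 3 were converted, so a shallow row is listed at high levels only. A minus-strand row at the base after a plus-strand row made a both-strand CpG. An shRNA position at either base counted, since the strand marks of those lists are not informative. Named CpGs were the 8 outside the marked stretches in most other libraries with the smallest p-values (ties in order of chromosome name and position) and the 5 with the largest strand difference; windows were the 8 fullest, runs the 5 longest and contexts the 5 most frequent. CpGs at 90% or more, and distances of 100 to 400 bp, were added after the values were seen. No p-values between CpGs were computed, because CpGs are not replicates.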

Additional observations from a re-analysis of the deposited data

How the results depend on the processing

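The shares listed in the other libraries and the share near another CpG stayed above those of one-strand CpGs in each alternative tried. The first-library level did not keep its order: its median lay below that of one-strand CpGs over all (11.6% against 13.1%) and above it outside the marked stretches (18.2% against 12.9%). Nor did the share at 0, which was 18.9% against 19.2% outside, or the share in caCGt, which in windows with at most 1 member was 1.13% against 1.82%. Without chrUn_random and the start of chromosome 9, by construction, 563 members remained, with 15.99% listed with Tdg shRNA, 5.33% with control shRNA, 72.3% near another listed CpG and 2.10% in caCGt. With p-values of at most 0.001 on every row, 43.5% were on the marked stretches, 74.5% in the first list, 39.7% with Tdg shRNA and 10.1% with control shRNA. With at least 20 recovered reads on both strands, which drops the strongest rows, 60 members remained, with 46.7% on the marked stretches, 60% in the first list, a median level of 4.18%, 25% with Tdg shRNA, 3.33% with control shRNA, 66.7% near another CpG and 13.9% in caCGt. In windows with at most 1 member outside the marked stretches, an alternative chosen after seeing the data, the 309 members had shares of 57.3% in the first list, 16.9% at 0, 3.88% with Tdg shRNA, 0.971% with control shRNA, 60.2% near another CpG and 1.13% in caCGt, and a median level of 20.5%. Counting shRNA positions at the plus-strand base only gave 19.7% with Tdg shRNA and 3.00% with control shRNA. Within 100 bp the shares were 41.0% and 20.02% in the same order, against 3.22% and 3.52% of one-strand CpGs. Within 100 bp 85.7% of members had a first-library CpG, within 1000 bp 90.4% had another listed CpG, and without zeros the median level was 25.6%. Where not set by construction, the cause was not tested. The strand difference moved by less than its spread in every alternative.

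No paired analysis was possible because no result compares groups that share replicate numbers in a test. Leaving out a replicate was not possible, since 1 library defines the members and each other library gives its own value. Depth is unknown in 3 libraries, and in the second it limits which levels a listed row can have.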
